A study of Mus musculus with 7 samples.

Results

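The 38 genes described here are the enzymes, transporters and regulators of glycolysis, of the exits of pyruvate and of the pentose phosphate pathway, together with Txnip, taken by symbol from the 27998 genes counted in 7 single-cell RNA libraries of mouse spleen T cells. They comprise 2 glucose transporters, 11 genes of upper glycolysis including the Pfkfb enzymes that set the level of its activator, 2 phosphoglucomutases, 8 genes of lower glycolysis, 4 genes of lactate production and export, 6 genes of pyruvate entry into mitochondria, 4 pentose phosphate genes and Txnip. All 38 were found exactly once in the files, and 35 had at least 1 unique molecular identifier (UMI, a tag that marks 1 captured RNA molecule) in every library.

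All mice were of the C57BL/6 background and had been infected with LCMV Armstrong, a virus that is cleared within an acute infection. Thpok is the transcription factor, encoded by Zbtb7b, that sets and keeps the CD4 helper fate. The Thpok-deleted GP66+ libraries, 1 at day 30 and 1 at day 7, came from Ox40-Cre+ Thpokfl/fl RosaYFP+ mice. The Thpok-sufficient GP66+ libraries, 1 at day 30 and 1 at day 7, came from Ox40-Cre+ Thpokwt/wt RosaYFP+ mice, and a further GP66+ library of day 7 came from wild type mice with neither Cre nor reporter named. Ox40-Cre acts in cells that have turned on Ox40, an activation-induced receptor, so the deletion follows activation, and all 4 Cre libraries were sorted for the YFP reporter. GP66+ cells bind the I-Ab tetramer loaded with the GP66 peptide of the virus and were sorted as CD44high cells; the wild type sort also required CD4. The 2 total CD44high libraries of day 7, also from wild type mice, held CD8+ and CD4+ cells that had been sorted separately and mixed in equal parts before capture. Each combination of genotype and day is 1 library, and neither the number of mice pooled nor their age is given, so every p-value below measures the spread between libraries or between cell classes within a library.

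Glycolysis splits glucose to pyruvate in the cytosol, and pyruvate then leaves as lactate or enters mitochondria, where pyruvate dehydrogenase burns it. The pentose phosphate pathway branches off at glucose 6-phosphate and yields NADPH and the ribose of nucleotides. T cells that divide after meeting antigen are known to raise glucose uptake and lactate production, whereas resting memory cells rely more on mitochondria; Txnip is an arrestin that removes glucose transporters from the cell surface and whose transcript follows sugar supply through the glucose-sensing factor MondoA (gene Mlxip) and its partner Mlx.

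The cells passing quality filters numbered 1319 to 6845 in the day 7 libraries, with medians of 4025 to 5900 UMIs per cell, and 736 and 725 in the Thpok-deleted and Thpok-sufficient libraries of day 30, with medians of 2440 and 2017 UMIs. B-like and myeloid-like clusters, 192 and 11 cells of the 2 total libraries, were left out. Zbtb7b itself had 1 UMI in each Thpok-deleted library, and 20.6 to 31.4 CPM in the others. Libraries shared at most 1.13% of the cell barcodes of the smaller one. Transcripts of haemoglobin and other erythroid genes summed to 6241 CPM in the Thpok-deleted library of day 30 and to at most 209 CPM elsewhere. Transcripts of 11 dissociation stress genes summed to 7634 and 8105 CPM in the day 30 libraries and to 1509 to 2908 CPM in the GP66+ libraries of day 7. Here CPM, counts per 1000000, is the level of a gene relative to all UMIs of the library or cell class; since 1 UMI stands for 1 tag at the 3′ end of an RNA, no division by transcript length is needed. In such sums fewer cells with a transcript and less transcript per cell cannot be told apart. The first total library held Xist at 871 CPM and no Ddx3y, and the second held Ddx3y and no Xist. Free RNA in the droplets carried the members too: barcodes with 1 to 50 UMIs held 0.44% and 0.284% of their UMIs on the members in the day 30 libraries and 0.596% to 0.699% in the others.

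The windows around the start sites show how differently the members are built at the promoter. They run from 250 bases before to 50 after the start in RefSeq on GRCm38.p6 and are shown for Txnip, Ldha, Ldhb and Aldoc, of which Txnip and Aldoc passed the test in several of the comparisons below and Ldha and Ldhb are the paired isoforms of 1 step; capitals mark ACGTG, the core that HIF and E-box factors share, on either strand, and in Txnip the paired E boxes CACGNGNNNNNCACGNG, a form of the element that MondoA and Mlx are known to bind.
Txnip, chr3:96557707-96558006, plus strand: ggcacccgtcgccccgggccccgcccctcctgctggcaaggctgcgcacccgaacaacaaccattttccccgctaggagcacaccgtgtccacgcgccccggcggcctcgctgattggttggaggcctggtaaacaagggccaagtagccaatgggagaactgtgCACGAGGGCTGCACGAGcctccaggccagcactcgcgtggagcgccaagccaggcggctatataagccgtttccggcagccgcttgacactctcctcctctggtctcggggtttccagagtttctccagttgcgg
Ldha, chr7:46845554-46845853, plus strand: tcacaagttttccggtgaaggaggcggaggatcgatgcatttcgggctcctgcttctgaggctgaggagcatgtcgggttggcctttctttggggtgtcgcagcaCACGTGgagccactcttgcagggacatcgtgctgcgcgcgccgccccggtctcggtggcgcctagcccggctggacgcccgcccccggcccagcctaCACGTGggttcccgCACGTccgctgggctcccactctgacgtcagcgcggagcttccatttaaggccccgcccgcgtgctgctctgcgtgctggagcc
Ldhb, chr6:142507908-142508207, minus strand: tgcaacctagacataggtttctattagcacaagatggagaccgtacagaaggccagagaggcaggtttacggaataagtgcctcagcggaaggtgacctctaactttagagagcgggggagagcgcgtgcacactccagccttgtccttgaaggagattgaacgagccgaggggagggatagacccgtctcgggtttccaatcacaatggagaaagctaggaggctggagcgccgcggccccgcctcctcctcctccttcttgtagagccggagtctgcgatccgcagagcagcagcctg
Aldoc, chr11:78323948-78324247, plus strand: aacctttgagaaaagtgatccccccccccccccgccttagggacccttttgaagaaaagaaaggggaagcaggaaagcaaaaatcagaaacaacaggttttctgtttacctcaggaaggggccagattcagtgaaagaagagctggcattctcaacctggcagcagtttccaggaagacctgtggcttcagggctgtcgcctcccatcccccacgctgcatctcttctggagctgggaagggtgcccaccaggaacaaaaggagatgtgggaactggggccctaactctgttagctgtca
RefSeq windows were found for 37 of the 38 members, all but Slc2a3. The paired E boxes stood in the Txnip window alone among the 37 and in 16 of 32851 windows of all genes, or 0.0487%. The sequence ACGTG, searched on both strands, stood in 15 of the 37 windows, 40.5%, and in 19.6% of all windows. Its palindromic form CACGTG, which contains ACGTG, stood in 4 of the 37, those of Ldha, Slc16a1, Pfkfb3 and Pfkm, and in 7.15% of all windows. Ldha had 2 matches of CACGTG and, counted over both strands, 5 of ACGTG, whereas Ldhb and Aldoc had none in these windows. The motifs GGGCGG and CCAAT, searched likewise, stood in 75.68% and 51.35% of the members' windows, against 35.66% and 37.41% of all windows. A higher frequency in the members' windows was therefore not particular to ACGTG. These matches describe letters and were not tested for binding.

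The members' summed level was lowest at day 30. They took 0.322% of UMIs in the Thpok-deleted library of day 30 and 0.266% in the Thpok-sufficient one, against 0.658% in the Thpok-deleted, 0.687% in the Thpok-sufficient and 0.767% in the wild type GP66+ library of day 7. In the total libraries, CD8-like cells, defined by UMIs of either Cd8 chain without any of Cd4, gave 0.493% and 0.601%, and CD4-like cells, defined the other way round, gave 0.6% and 0.731%. In both total libraries the CD8-like sum was the lower one, and the 2 total libraries differed from each other by about as much. Gapdh, Ldha and Pkm, the enzymes of the glyceraldehyde phosphate, lactate and pyruvate steps, were the members with most UMIs in the pooled day 7 GP66+ cells, while Eno2 and Pfkfb4 had 0 UMIs in the Thpok-sufficient library of day 30, which allows up to 1.93 CPM each, and Pfkm had 0 UMIs in the Thpok-deleted one, which allows up to 1.40 CPM. Eno2 and Pfkfb4 were too low to test in all but the interaction.

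**Figure D1:**
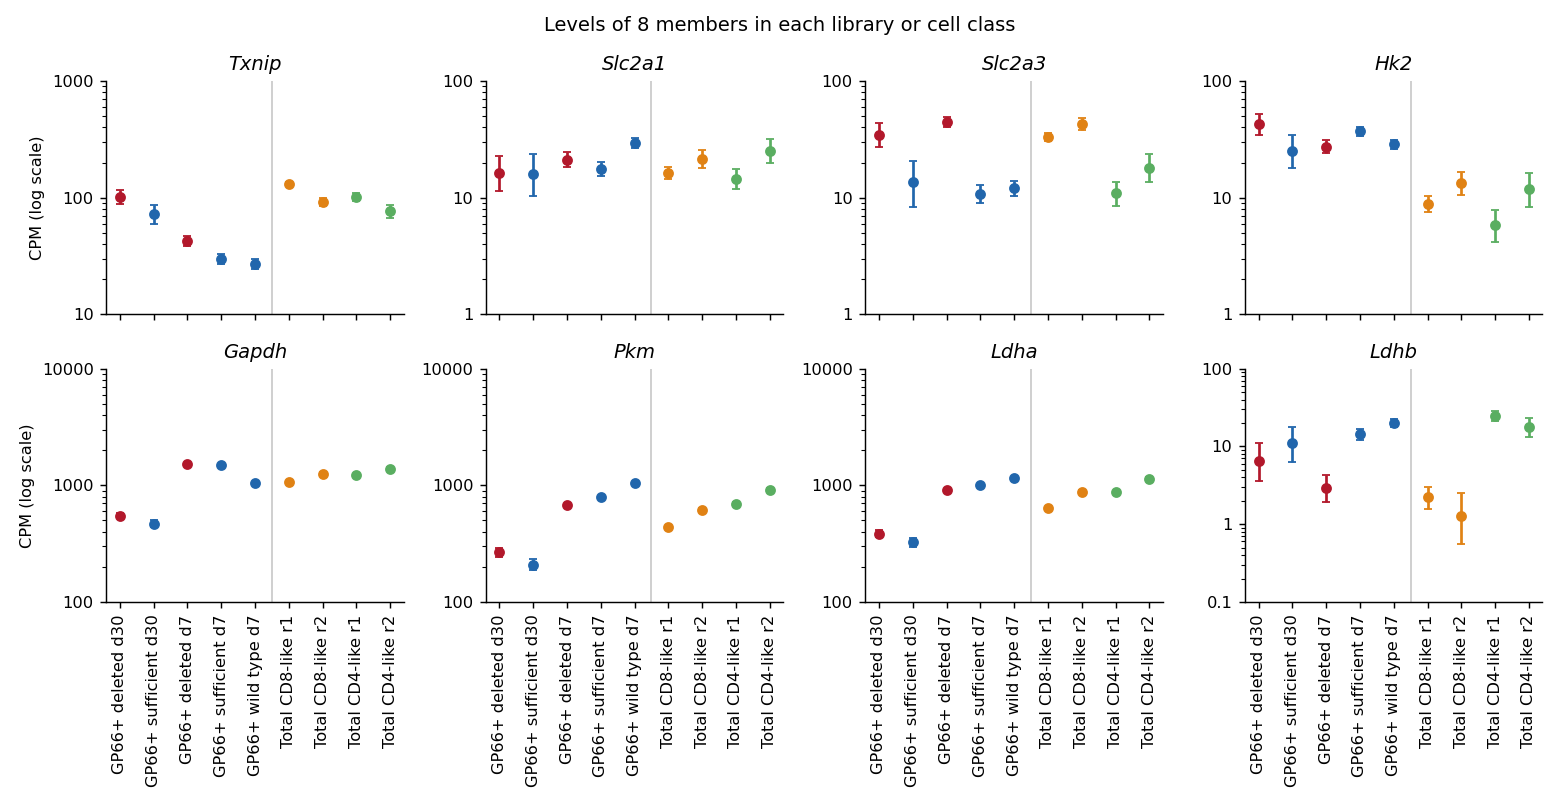
CPM (log axis) of 8 members. Left of the grey line are all T cells of each GP66+ library, Thpok-deleted in red and Thpok-sufficient or wild type in blue; right of it the CD8-like (orange) and CD4-like (green) cells of the 2 total libraries. Points are single libraries or classes and bars exact 95% Poisson intervals, which cover counting error only. Gapdh, Pkm and Ldha stand lower in both day 30 libraries than in all day 7 libraries, Txnip higher than in the GP66+ libraries of day 7, and Ldhb and Slc2a3 separate the red from the blue and the orange from the green points. Ldhb did not pass the edgeR test of red against blue (adjusted p = 0.104), and its intervals in the day 30 libraries overlap.

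Day 30 was set against day 7 in the 5 GP66+ libraries, with genotype as a covariate. The fit had 2 residual degrees of freedom, so its p-values rest on few samples. Its spread came from the Thpok-sufficient and wild type libraries of day 7 and from any difference of the deletion effect between days. Of the 36 members tested, 16 fell and 1 rose at day 30. The genes that fell spanned upper glycolysis (Aldoc, Tpi1, Aldoa, Gpi1, Pfkl), the phosphoglucomutase Pgm1, lower glycolysis (Pkm, Pgam1, Gapdh, Eno1), Ldha, the mitochondrial pyruvate carrier subunit Mpc1 and all 4 pentose phosphate genes; the gene that rose was Txnip. Over all 10812 genes tested, 11.9% fell and 9.97% rose. The median log2 fold change of the 36 members was -0.69, against 0.03 over all genes, and scaling by library totals alone would shift the median of all genes to -0.15.

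Tpi1, triose phosphate isomerase, had 35.0 CPM in the Thpok-deleted and 38.02 CPM in the Thpok-sufficient library of day 30, against 194, 263 and 391 CPM in the Thpok-deleted, Thpok-sufficient and wild type libraries of day 7. The groups did not overlap, and the log2 fold change was -2.63 ± 0.22 (SE; adjusted p = 0.0088). Pkm, which makes pyruvate, had 266 and 208 CPM in the Thpok-deleted and Thpok-sufficient libraries of day 30, against 677, 795 and 1051 CPM at day 7 in the same order with the wild type last, a log2 fold change of -1.61 ± 0.20 (adjusted p = 0.0127). Ldha, which turns pyruvate into lactate, had 383 and 324 CPM at day 30, against 906, 999 and 1163 CPM at day 7, a change of -1.34 ± 0.14 (adjusted p = 0.0112). In all 3 genes both day 30 libraries lay below every day 7 library, a description of the libraries the test itself used. Gapdh had 551 and 469.8 CPM at day 30, against 1516, 1504 and 1046 CPM at day 7 (log2 fold change -1.27 ± 0.24, adjusted p = 0.0248); it is the only one of these genes that was lowest in the wild type library among the day 7 libraries. Aldoa, the ubiquitous aldolase, fell by 1.22 on the log2 scale, Pgam1 by 1.34, Eno1 by 0.90, Gpi1 by 0.92 and Pfkl by 0.88. The phosphoglucomutase listed as Pgm1 fell by 0.94 and Mpc1 by 0.67. The 2 phosphoglucomutase symbols are swapped between the files and the GENCODE annotation: ENSMUSG00000029171 is Pgm1 in the files and Pgm2 in GENCODE, and ENSMUSG00000025791 is the reverse. The files' symbols are used throughout.

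The brain-type aldolase Aldoc was nearly absent at day 30. It had 1 UMI in the Thpok-deleted and 2 UMIs in the Thpok-sufficient library of day 30, against 30, 193 and 253 UMIs in the Thpok-deleted, Thpok-sufficient and wild type libraries of day 7. The pooled ratio of CPM was 0.0608 with a 95% counting interval of 0.0125 to 0.179, and the fitted test gave an adjusted p of 0.0129.

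The pentose phosphate genes fell together. Tkt, transketolase of the non-oxidative branch, had 78.9 and 49.6 CPM in the Thpok-deleted and Thpok-sufficient libraries of day 30, against 196.5, 142 and 180.4 CPM at day 7 (log2 fold change -1.34 ± 0.15, adjusted p = 0.0112). Taldo1, its partner transaldolase, fell by 0.97, and the 2 enzymes that make NADPH, G6pdx and Pgd, each fell by 1.01 (adjusted p of 0.0392 for G6pdx and 0.0213 for Pgd). None of the 4 had a day 30 library above a day 7 library. The test used these same libraries, and the share of all genes separated in this way was not counted. With the stricter limits on cells given below, all 4 stayed negative but did not pass the test. Tkt then gave -0.84, Taldo1 -0.72, G6pdx -1.04 and Pgd -0.34 (adjusted p of 0.0608, 0.0516, 0.293 and 0.46). G6pdx also missed the threshold with DESeq2 (adjusted p = 0.0978) and in cells with no cell cycle UMI (adjusted p = 0.076). Tkt, Taldo1 and Pgd passed in both.

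Txnip moved the other way. It had 101 CPM in the Thpok-deleted and 72.2 CPM in the Thpok-sufficient library of day 30, against 42.5, 29.8 and 27.0 CPM in the Thpok-deleted, Thpok-sufficient and wild type libraries of day 7, without overlap (log2 fold change 1.49 ± 0.17, adjusted p = 0.0117). Over all T cells of the total CD44high libraries of day 7 it had 124 and 85.3 CPM.

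Several members on either side of these steps did not pass the test, although Mpc1 and Pgm1 did. The transporters Slc2a1 and Slc2a3 had log2 fold changes of -0.28 ± 0.27 and 0.08 ± 0.25 (adjusted p of 0.485 and 0.853), and the inducible hexokinase Hk2 had 42.5 and 25.1 CPM at day 30 against 27.4, 37.0 and 28.6 CPM at day 7 (0.27 ± 0.29, adjusted p = 0.525). Ldhb, the isoform of lactate dehydrogenase that favours pyruvate, gave 0.24 ± 0.43 (adjusted p = 0.72). The pyruvate dehydrogenase genes Pdha1, Pdhb and Dlat and the carrier subunit Mpc2 gave -0.17, -0.15, -0.21 and -0.05, none past the threshold. Pfkp, the platelet-type phosphofructokinase, had 97.6 and 54.8 CPM at day 30 against 137, 138 and 188 CPM at day 7, without overlap, and just missed it (-0.89 ± 0.25, adjusted p = 0.0581). The share of Ldhb in the UMIs of both isoforms was 1.68% and 3.27% in the Thpok-deleted and Thpok-sufficient libraries of day 30, against 0.324%, 1.41% and 1.70% at day 7; within each genotype the day 30 share was the higher one.

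Genes of the same pathways outside the 38 were read from fixed lists. Of 32 further glycolysis and pyruvate genes tested, 9 fell and 2 rose at day 30; those that fell included Got2 (-1.15) and Mdh1 (-0.76), enzymes of the malate-aspartate shuttle, and Bsg (-0.77), the chaperone of lactate transporters, and those that rose were Got1 (1.56) and the glycogen branching enzyme Gbe1 (1.10). Of 13 further pentose phosphate genes 2 fell, Rpe (-0.94) and Dera (-1.61), and none rose. Of 20 regulators 5 rose and none fell: Arrdc4 (3.13 ± 0.58, adjusted p = 0.0238), an arrestin that like Txnip is a known target of MondoA, Mlxip itself (1.66 ± 0.20, adjusted p = 0.0124), Foxo3 (1.81), Arnt (0.91) and Rheb (0.75). Among 13 hypoxia-induced genes outside glycolysis, Ankrd37, Mif and Narf fell and Mxi1 rose.

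Cell cycle genes moved with the day: 10 of them summed to 358 and 139 CPM in the Thpok-deleted and Thpok-sufficient libraries of day 30, against 1472, 856 and 1212 CPM at day 7. In cells with no UMI of these 10 genes, an alternative chosen after seeing the data, 14 of 34 members tested still fell and Txnip still rose, with Tpi1 at -2.61 ± 0.24 and Tkt at -1.33 ± 0.16 on the log2 scale. Over all 8209 genes tested in those cells, 888 fell and 866 rose. The stress genes and the depth given above moved with the day as well, with 8 of 11 stress genes higher at day 30. Of 11 B cell markers 5 were tested and 2 were higher, with sums of 63.0 and 78.0 CPM in the Thpok-deleted and Thpok-sufficient libraries of day 30, against 16.8, 41.3 and 38.5 CPM in the Thpok-deleted, Thpok-sufficient and wild type libraries of day 7. The erythroid transcripts stood apart in the Thpok-deleted library of day 30 alone. The part of these genes in the result was not tested. Without the Thpok-deleted library of day 30, the Thpok-sufficient library of day 30 or the Thpok-deleted library of day 7, edgeR called 0 of 11232, 0 of 11294 and 0 of 11024 genes, members included. In the same order Pkm then gave -1.87, -1.34 and -1.87, Ldha -1.46, -1.23 and -1.46 and Txnip 1.61, 1.26 and 1.615 on the log2 scale. Without either Thpok-deleted library the genotype term takes up the other one. Both of those fits then compare the Thpok-sufficient library of day 30 with the Thpok-sufficient and wild type libraries of day 7. The first and last value of each gene therefore agree by design. When cells had to pass 2 stricter limits at once, 1000 genes as the minimum and a mitochondrial share of 5% as the maximum, 5 members were lower and 1 higher, and over all genes 210 were lower and 245 higher, against 1283 lower and 1078 higher with the limits used elsewhere.

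**Figure D2:**
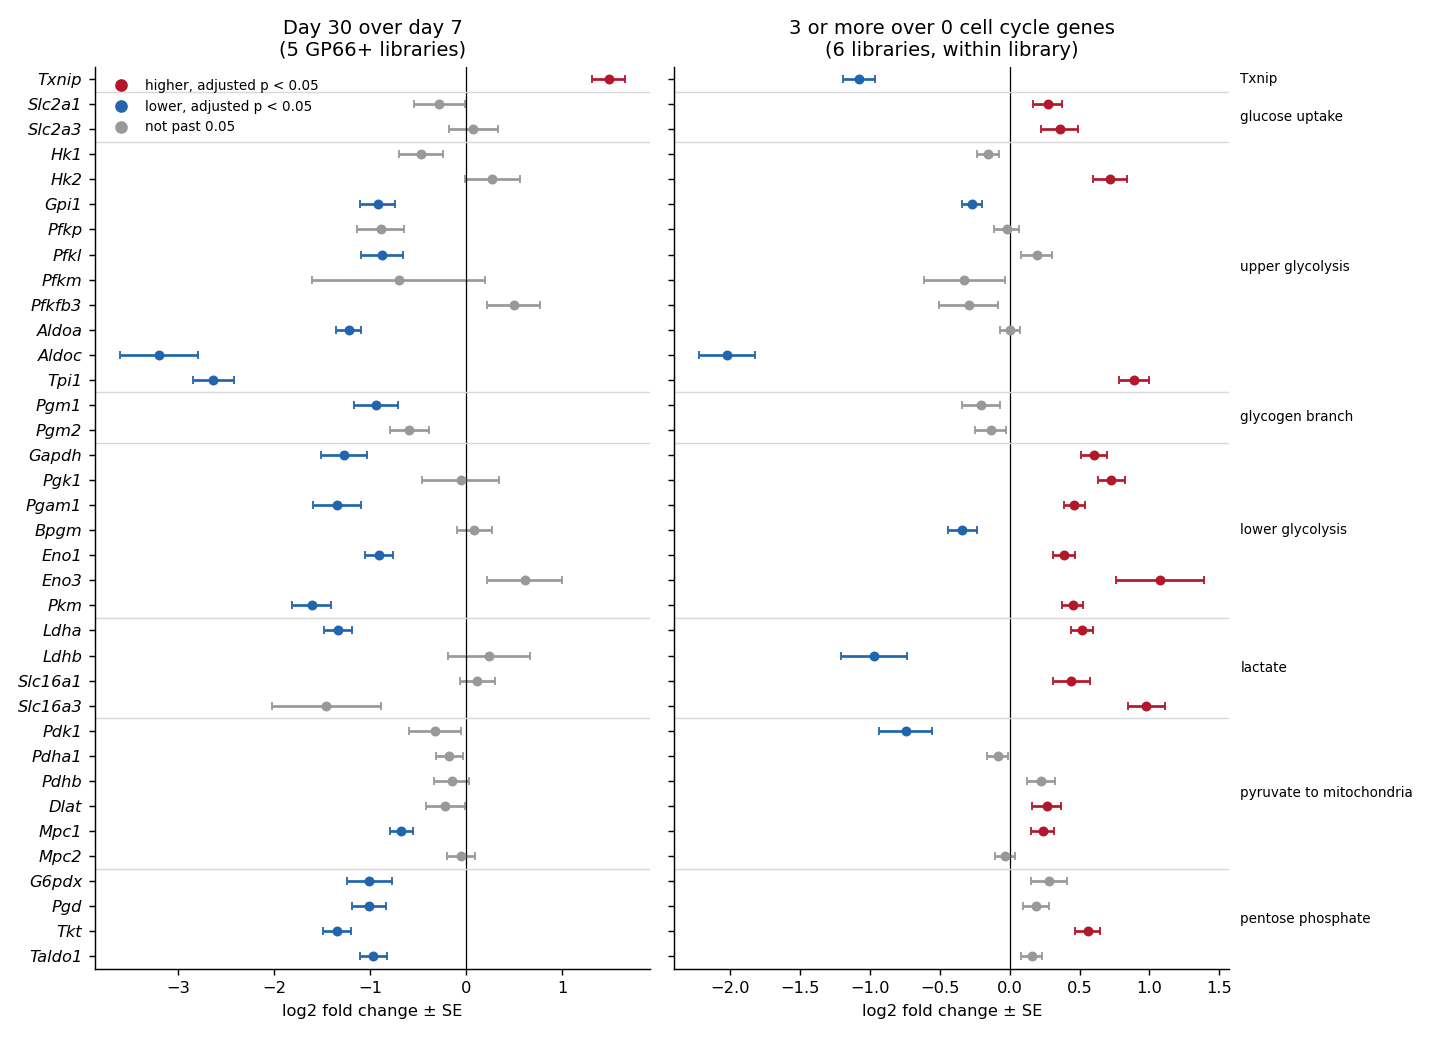
Log2 fold changes (points, ± SE) of the members by role, at day 30 over day 7 in 5 GP66+ libraries (left) and in cells with 3 or more over cells with 0 of 10 cell cycle genes within 6 libraries (right). Red and blue mark members past an adjusted p of 0.05. Left of zero on the left panel stand 16 blue genes from Aldoc to Mpc1 with Txnip alone in red, and on the right panel Txnip is blue and 16 members are red.

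Within libraries, cells in cycle were set against cells out of cycle: 3 or more of 10 cell cycle genes with a UMI against none, in the 6 libraries with at least 20 cells of each class. The Thpok-deleted library of day 30 had 22 cells in cycle, so its levels in that class rest on few UMIs. Of 36 members, 16 rose and 6 fell in the cycling cells. Over all 10253 genes, 24.4% rose and 26.1% fell, so that the members' share called in either direction, 22 of 36, stands beside a background of 50.6%. The median log2 fold change was 0.21 over the members and -0.04 over all genes.

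Of the 16 members that rose, 6 were genes of lower glycolysis. Tpi1, of upper glycolysis, had 104, 238, 332, 533, 175 and 258 CPM in cycling cells of the Thpok-deleted day 30, Thpok-deleted day 7, Thpok-sufficient day 7, wild type, first total and second total library, against 25.5, 121, 231, 289, 72.2 and 163 CPM in the cells out of cycle of the same libraries. It was higher in all 6 (log2 fold change 0.89 ± 0.11, adjusted p = 4.62e-06). Pgk1, phosphoglycerate kinase, gave 0.73 ± 0.10, Slc16a3, the lactate exporter MCT4, 0.98 ± 0.13, Gapdh 0.60 ± 0.09, Ldha 0.52 ± 0.08, Pgam1 0.46 ± 0.07, Pkm 0.45 ± 0.07 and Eno1 0.39 ± 0.08. Of the glucose-capturing genes, Hk2 gave 0.72 ± 0.12, Slc2a1 0.27 ± 0.11 and Slc2a3 0.36 ± 0.13. Tkt was the pentose phosphate member past the threshold, at 0.56 ± 0.09 (adjusted p = 8.11e-05); G6pdx, Pgd and Taldo1 gave 0.28, 0.19 and 0.16. Eno3, the muscle enolase, rose by 1.08 ± 0.31. It had 31.7 CPM in the 22 cycling cells of the Thpok-deleted library of day 30. In cycling cells of any other library it had at most 6.85 CPM. Slc16a1, Dlat and Mpc1 completed the 16.

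The members that fell were Aldoc, Txnip, Ldhb, Pdk1, Bpgm and Gpi1. Txnip had 45.3, 32.2, 23.8, 17.6, 57.4 and 55.4 CPM in cycling cells of the 6 libraries in the order above, against 113, 57.6, 33.5, 33.8, 162 and 109 CPM in the cells out of cycle, lower in all 6 (log2 fold change -1.07 ± 0.11, adjusted p = 9.69e-07). Aldoc changed by -2.02 ± 0.20 (adjusted p = 7.18e-07), Ldhb by -0.97 ± 0.24 (adjusted p = 0.0028) and Pdk1, the kinase that switches pyruvate dehydrogenase off, by -0.74 ± 0.19 (adjusted p = 0.00417). Within the aldolases, then, Aldoc fell while Aldoa stood at 0.00 ± 0.07, and within lactate dehydrogenase Ldhb fell while Ldha rose.

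Cycling cells held more RNA, with median UMI counts of 7454 to 9399 per cell against 2310 to 4875 in cells out of cycle. With every cell thinned to 1500 UMIs before classing, 7 members rose and 6 fell of 33 tested, with Tpi1 at 0.58 ± 0.11, Tkt at 0.38 ± 0.11, Txnip at -0.90 ± 0.16 and Ldhb at -1.89 ± 0.41, whereas Slc2a3 and Dlat changed sign without being called (-0.11 and -0.02). Over all 7821 genes tested in the thinned cells, 1476 rose and 1316 fell. The median log2 fold change was then -0.03 over the members and -0.04 over all genes, so the members' median lay near that of all genes. Stress genes summed to less in the cycling cells of all 6 libraries, with 8 of 11 lower, and so did T cell markers, with 5 of 6 tested lower; their part was not tested. Of 20 regulators 5 rose and 8 fell in cycling cells. Mtor (0.88), Epas1 (0.74), Bhlhe40 (0.45), Egln1 (0.36) and Rheb (0.22) rose, and those that fell included Arrdc4 (-1.58), Foxo3 (-0.90), Egln3 (-0.66) and Mlxip (-0.66). Of 13 hypoxia-induced genes 3 rose, Mif (0.55), Ero1l (0.34) and Higd1a (0.25), and 6 fell, from Narf (-0.83) to P4ha1 (-0.43). Of 28 further glycolysis genes 12 rose and 4 fell, and of 13 further pentose phosphate genes 5 rose and none fell, Gsr (0.63), Prps1 (0.63), Rpia (0.57), Txnrd1 (0.50) and Dera (0.27).

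**Figure D3:**
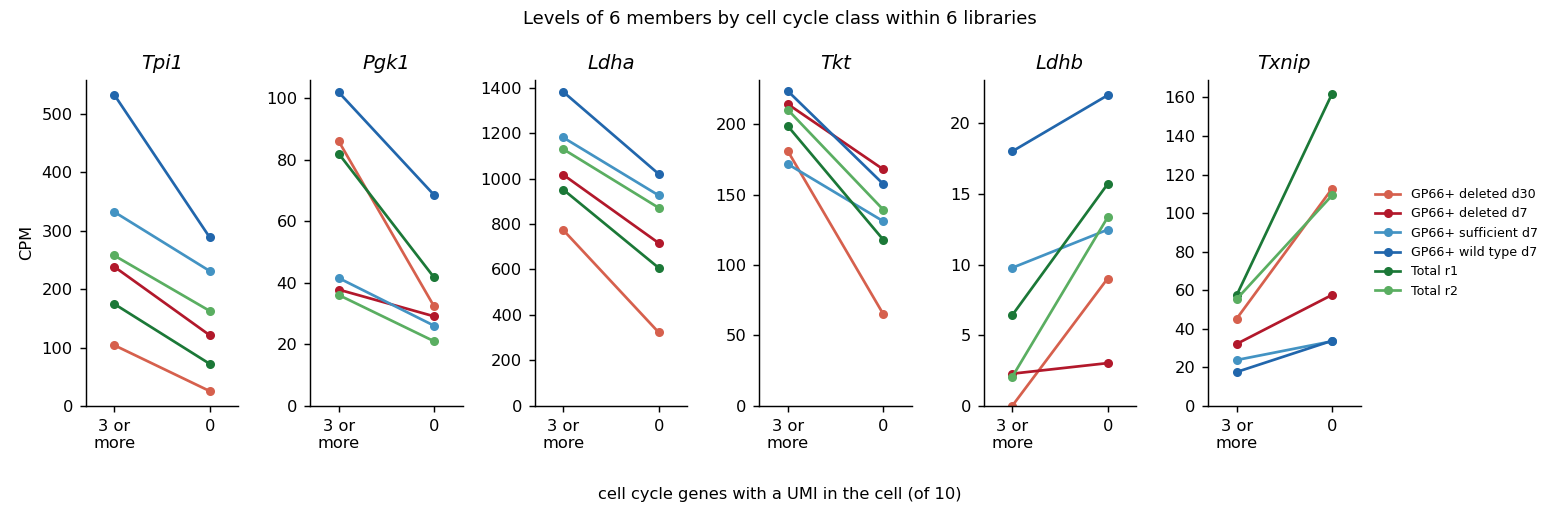
CPM of 6 members in cells with 3 or more (left point) and 0 (right point) of 10 cell cycle genes, each line 1 library. Lines for Tpi1, Pgk1, Ldha and Tkt run down to the right in all 6 libraries, and those for Ldhb and Txnip run up. Ldhb had 0 UMIs in the cycling cells of the Thpok-deleted library of day 30, a class of 22 cells.

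CD8-like cells were set against CD4-like cells of the same total CD44high library. Of 36 members, 15 were lower and 6 higher in CD8-like cells. Over all 10200 genes, 19.3% were lower and 18.6% higher. The median log2 fold change was -0.15 over the members and -0.02 over all genes, or -0.10 over all genes when scaled by library totals alone. With 2 libraries the fit had 1 residual degree of freedom and leaned on the spread shared over genes, so the p-values below rest on few samples.

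The isoforms of single steps differed most. Ldhb had 2.23 and 1.28 CPM in the CD8-like cells of the first and second library, against 24.8 and 17.8 CPM in their CD4-like cells, without overlap (log2 fold change -3.45 ± 0.22, adjusted p = 1.73e-26). Ldha had 641 and 882 CPM in CD8-like cells, against 874 and 1133 CPM in CD4-like cells, lower in both libraries by far less (-0.32 ± 0.05, adjusted p = 1.66e-07). Ldhb thus made up 0.346% and 0.145% of the lactate dehydrogenase UMIs in CD8-like cells, against 2.76% and 1.54% in CD4-like cells, and the exact 95% binomial intervals of the 2 classes did not overlap in either library. Aldoc had 1.88 and 3.20 CPM in CD8-like cells, against 10.3 and 12.8 CPM in CD4-like cells (-2.20 ± 0.25, adjusted p = 8.47e-13), with Aldoa at -0.27 ± 0.06.

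Of the glucose transporters, Slc2a3, the high-affinity GLUT3, had 33.2 and 42.9 CPM in CD8-like cells, against 10.9 and 18.1 CPM in CD4-like cells, without overlap (1.54 ± 0.14, adjusted p = 1.06e-16). Slc2a1, the GLUT1 transporter, had 16.4 and 21.4 CPM in CD8-like cells, against 14.5 and 25.3 CPM in CD4-like cells, with overlap (0.08 ± 0.15, adjusted p = 0.713). Slc2a3 was therefore 66.9% and 66.7% of the UMIs of both transporters in CD8-like cells, against 42.9% and 41.7% in CD4-like cells.

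Other members lower in CD8-like cells were Tpi1 (-0.87 ± 0.08), Pfkl, the liver-type phosphofructokinase (-0.84 ± 0.10), Pkm (-0.54 ± 0.06), Pgam1 (-0.43 ± 0.08), Bpgm (-0.75 ± 0.13), Pgm2 (-0.74 ± 0.14), Slc16a3 (-0.78 ± 0.19) and Pdk1 (-1.01 ± 0.13), with smaller differences for Gpi1, Pdha1 and Mpc1 of at most 0.24. Higher in CD8-like cells were Txnip (0.41 ± 0.09), Pgm1 (0.61 ± 0.15), Dlat (0.36 ± 0.14) and the pair of the non-oxidative pentose branch, Tkt (0.32 ± 0.08) and Taldo1 (0.22 ± 0.07). Gapdh (-0.09 ± 0.05, adjusted p = 0.156) and Hk2 (0.49 ± 0.21, adjusted p = 0.0518) did not pass.

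Of 19 regulators tested, 4 were lower and 4 higher in CD8-like cells, with a median log2 fold change of -0.002. Hif1a, a hypoxia factor, was among the lower ones (-1.61 ± 0.08, adjusted p = 1.4e-33), and its part in the members' levels was not tested. Of 13 hypoxia-induced genes outside glycolysis 8 were lower and 2 higher, with Egln3 (-3.81), Bnip3 (-2.42) and Ddit4 (-2.13) lower. Of 29 further glycolysis genes 6 were lower and 5 higher; the transporter Slc2a6 gave -4.03 and the glycerophosphate dehydrogenase Gpd2 1.21. Of 14 further pentose phosphate genes 3 were higher, Tktl1, Prps1 and Txnrd1. NK markers stood at 172 and 126 CPM in CD8-like cells against 19.2 and 10.2 CPM in CD4-like cells, all 4 tested of the 5 listed higher in CD8-like cells. Of 11 myeloid markers 8 were tested, 6 higher and 1 lower in CD8-like cells, with sums of 304 and 328 CPM in CD8-like cells against 287 and 318 CPM in CD4-like cells. Cell cycle genes stood at 1403 and 1367 CPM in CD8-like cells against 862 and 720 CPM in CD4-like cells. Stress genes were lower, at 286 and 772 CPM against 375 and 1086 CPM. In cells with no cell cycle UMI, chosen after seeing the data, 15 members were lower and 4 higher of 34, Tpi1 at -1.52 ± 0.11 and Slc2a3 at 1.96 ± 0.23. Over all 8824 genes tested in these cells, 1247 were lower and 1249 higher. The part of the NK, myeloid and stress genes was not tested. DESeq2 called 12 members, 10 lower and 2 higher, and over all 10200 genes 628 lower and 750 higher.

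Within GP66+ libraries, cells with a Cxcr6 UMI and no Cxcr5 UMI were set against cells with the reverse. Cxcr6 marks Th1-like effector helper cells and Cxcr5 follicular helper-like cells. In 4 libraries with at least 20 cells of each kind, 8 of 35 members were lower and 1 was higher in the Cxcr6-positive cells. Over all 9460 genes, 8.45% were lower and 8.91% higher, and the median log2 fold change was -0.15 over the members and -0.03 over all genes.

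Slc2a3 was the member past the threshold as higher, a call that was lost without the wild type library and with DESeq2. It had 20.1, 44.3, 18.8 and 33.2 CPM in the Cxcr6-positive cells of the Thpok-sufficient day 30, Thpok-deleted day 7, Thpok-sufficient day 7 and wild type libraries, against 13.6, 50.2, 6.31 and 7.499 CPM in their Cxcr5-positive cells (1.47 ± 0.28, adjusted p = 0.000455). It was higher in all but the Thpok-deleted library, where the Cxcr5-positive class held 33 cells and 11 UMIs of the gene. Without the wild type library it gave 0.77 ± 0.39 (adjusted p = 0.339), and DESeq2 gave an adjusted p of 0.105. Aldoc had 0, 17, 7 and 14 UMIs in the Cxcr6-positive cells of these libraries, against 1, 2, 70 and 106 UMIs in the Cxcr5-positive cells (log2 fold change -2.24 ± 0.32, adjusted p = 1.25e-05). In the Thpok-deleted library of day 7 the classes held 686 and 33 cells and in the Thpok-sufficient library of day 30 they held 64 and 63 cells, so the counts were largest in the other 2 libraries.

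Ldhb (-1.32 ± 0.28, adjusted p = 0.00152), Pdk1 (-1.003 ± 0.164, adjusted p = 7.52e-05), Bpgm (-0.71 ± 0.20), Pgm2 (-0.63 ± 0.19), Pgam1 (-0.39 ± 0.11) and Gpi1 (-0.39 ± 0.12) were lower too. So was Pfkfb3, which makes the activator of phosphofructokinase (-1.02 ± 0.32, adjusted p = 0.0272), at 13.7 CPM or less in each class. Ldha (0.24 ± 0.11, adjusted p = 0.136), Hk2 (0.45 ± 0.18, adjusted p = 0.0983), Txnip (0.19 ± 0.18), Pkm (-0.13 ± 0.13), Slc2a1 (0.05 ± 0.19) and Gapdh (0.03 ± 0.10) did not pass. Of 20 regulators 4 were lower in Cxcr6-positive cells, Egln3 (-2.16), Myc (-0.54), Foxo1 (-0.52) and Hif1a (-0.42), and 2 higher, Bhlhe40 (1.66) and Epas1 (1.63). Of 13 hypoxia-induced genes, Egln3 among them again, Bnip3 (-1.82) and Ddit4 (-0.57) were lower too and Mxi1 (1.22) and Higd1a (0.37) higher. The NADPH-using reductases Txnrd1 (0.69) and Gsr (0.46) and the ribose user Prps1 (0.65) were higher. All 10 cell cycle genes were higher in the Cxcr6-positive cells, with a sum of 1759 CPM against 626 CPM in the Thpok-sufficient and 1919 CPM against 1091 CPM in the wild type library of day 7. Of 11 stress genes 5 were lower, and of 6 myeloid markers tested 3 were higher and 2 lower; their part was not tested. In cells with no cell cycle UMI, chosen after seeing the data, 3 of 27 members were called, Aldoc and Pdk1 lower and Txnip higher, while Slc2a3 was too low to test. Over all 4646 genes tested in these cells, 181 were lower and 204 higher. Without the wild type or the Thpok-sufficient library of day 7, 1 or 2 members were called, and DESeq2 called 1, Aldoc. Over all genes, 167 were lower and 278 higher of 7699 without the wild type library. Without the Thpok-sufficient one 162 were lower and 216 higher of 8025, and with DESeq2 274 were lower and 326 higher of 9460.

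Thpok-deleted GP66+ cells were set against Thpok-sufficient GP66+ cells, the wild type library included, with day as a covariate. This was the fit used for day, with 2 residual degrees of freedom. Of 36 members 1 rose and 1 fell. Over all 10812 genes 0.731% rose and 0.379% fell, 1.11% in all, and the median log2 fold change was -0.09 over the members and 0.00 over all genes. Slc2a3 had 34.6 CPM in the Thpok-deleted against 13.5 CPM in the Thpok-sufficient library at day 30, and 44.9 CPM in the Thpok-deleted against 10.8 and 12.03 CPM in the Thpok-sufficient and wild type libraries at day 7. Both Thpok-deleted libraries lay above all 3 others (1.72 ± 0.23, adjusted p = 0.0498). Slc2a3 made up 67.9% and 68.0% of the UMIs of Slc2a1 and Slc2a3 in the Thpok-deleted libraries of day 30 and day 7, against 45.7%, 38.1% and 29.1% in the Thpok-sufficient day 30, Thpok-sufficient day 7 and wild type libraries. Their intervals are in the plot of isoform shares. Slc2a1 did not pass (-0.14 ± 0.25, adjusted p = 0.826).

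Aldoc fell. At day 7 it had 30 UMIs, or 3.39 CPM, in Thpok-deleted cells, against 193 and 253 UMIs, or 15.5 and 17.7 CPM, in Thpok-sufficient and wild type cells, a pooled ratio of 0.203 (95% counting interval 0.136 to 0.295). At day 30, with 1 UMI against 2, no difference was detectable. The fit gave -2.23 ± 0.29 (adjusted p = 0.0482).

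Ldhb had 6.54 CPM in the Thpok-deleted against 10.96 CPM in the Thpok-sufficient library at day 30, and 2.94 CPM against 14.3 and 20.1 CPM at day 7, lower in both Thpok-deleted libraries than in the 3 others. The counting intervals of the day 30 values overlapped. In CD4-like cells alone the day 30 values were 11.5 CPM in the Thpok-deleted and 11.7 CPM in the Thpok-sufficient library. Ldhb did not pass (-2.01 ± 0.42, adjusted p = 0.104), nor did Pdk1 (-1.31 ± 0.27, adjusted p = 0.0975) with 17.7 against 34.2 CPM at day 30 and 21.0 against 41.1 and 71.8 CPM at day 7; DESeq2 gave adjusted p of 0.0082 for Ldhb and 0.0095 for Pdk1. Without the Thpok-deleted library of day 7 Ldhb gave -0.95 ± 0.41 (adjusted p = 0.497). The other fixed genes gave 0.46 ± 0.17 for Txnip (adjusted p = 0.249), -0.13 ± 0.14 for Ldha, -0.19 ± 0.19 for Pkm, 0.15 ± 0.23 for Gapdh and 0.04 ± 0.28 for Hk2. Of the regulators Hif1a fell (-1.09 ± 0.13, adjusted p = 0.0426), and none of the further glycolysis, pentose phosphate or hypoxia-induced genes passed.

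The mix of cells moved with genotype. Cells with 3 or more of the 10 cell cycle genes were 2.99% of the Thpok-deleted library at day 30 and 42.3% at day 7, against 0.552% in the Thpok-sufficient library at day 30 and 19.1% and 23.6% in the Thpok-sufficient and wild type libraries at day 7. In cells with no cell cycle UMI, chosen after seeing the data, Slc2a3 gave 2.01 ± 0.27 (adjusted p = 0.0217) and Aldoc -1.98 ± 0.44 (adjusted p = 0.117). Cxcr6-positive cells were 42.3% of the Thpok-deleted library at day 30 and 52.0% at day 7, against 8.83% in the Thpok-sufficient library at day 30 and 14.6% and 15.9% in the Thpok-sufficient and wild type libraries at day 7. CD8-like cells were 7.34% and 18.4% of the Thpok-deleted libraries, and at most 2.29% of the others. NK markers summed to 96.7 and 64.2 CPM in the Thpok-deleted libraries of day 30 and day 7, against 11.6, 7.22 and 8.60 CPM in the Thpok-sufficient day 30, Thpok-sufficient day 7 and wild type libraries, with 2 of 4 tested higher, and their part was not tested. Within Cxcr6-positive cells, an alternative chosen after seeing the data, Slc2a3 gave 0.87 ± 0.32 (adjusted p = 0.666) and Ldhb -1.77 ± 0.51 (adjusted p = 0.456). Of 33 members tested there, 0 were called, and Aldoc was too low to be among those tested. Over all 8874 genes tested in those cells, 13 were higher and 5 lower. Among cells with no Cd8 UMI, Slc2a3 gave 1.72 ± 0.25 and Aldoc -2.01 ± 0.29, each with an adjusted p of 0.0601. Both calls were lost without any 1 of the libraries other than the wild type one. Without the Thpok-deleted or Thpok-sufficient library of day 30 or the Thpok-deleted library of day 7, edgeR called 0 of 11232, 0 of 11294 and 0 of 11024 genes, and without the Thpok-sufficient library of day 7 it called 34 higher and 12 lower of 10176. In that order Slc2a3 gave 1.99, 1.99, 1.14 and 1.66 and Aldoc -2.26, -2.27, -1.64 and -2.20 on the log2 scale. Without either day 30 library the day term takes up the other one. Both of those fits then compare the libraries of day 7 alone, so their values agree by design.

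The deletion and lineage contrasts, which share no library, can be read side by side. All 6 members higher in CD8-like cells had a positive log2 fold change in Thpok-deleted cells, and 14 of the 15 lower ones a negative, the exception being Mpc1. The same held for 91.9% of the 1860 genes higher and 90.5% of the 1953 genes lower in CD8-like cells with a fit in both contrasts, so the members' shares lay near that of all genes. Whether deletion acted differently at day 30 and day 7 was tested as an interaction: edgeR called 0 of 38 members and 0 of 11338 genes (0%), with 1 member at an unadjusted p under 0.05, and DESeq2 called 0 members too. Ldhb gave an interaction of 1.53 ± 0.52 and Slc2a3 -0.88 ± 0.30, both with an adjusted p of 0.696. Txnip (-0.35 ± 0.32), Hk2 (0.77 ± 0.48), Ldha (0.23 ± 0.22), Pkm (0.53 ± 0.29), Gapdh (-0.27 ± 0.52) and Slc2a1 (-0.11 ± 0.58) did not pass either. The interaction fit has 1 residual degree of freedom.

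**Figure D4:**
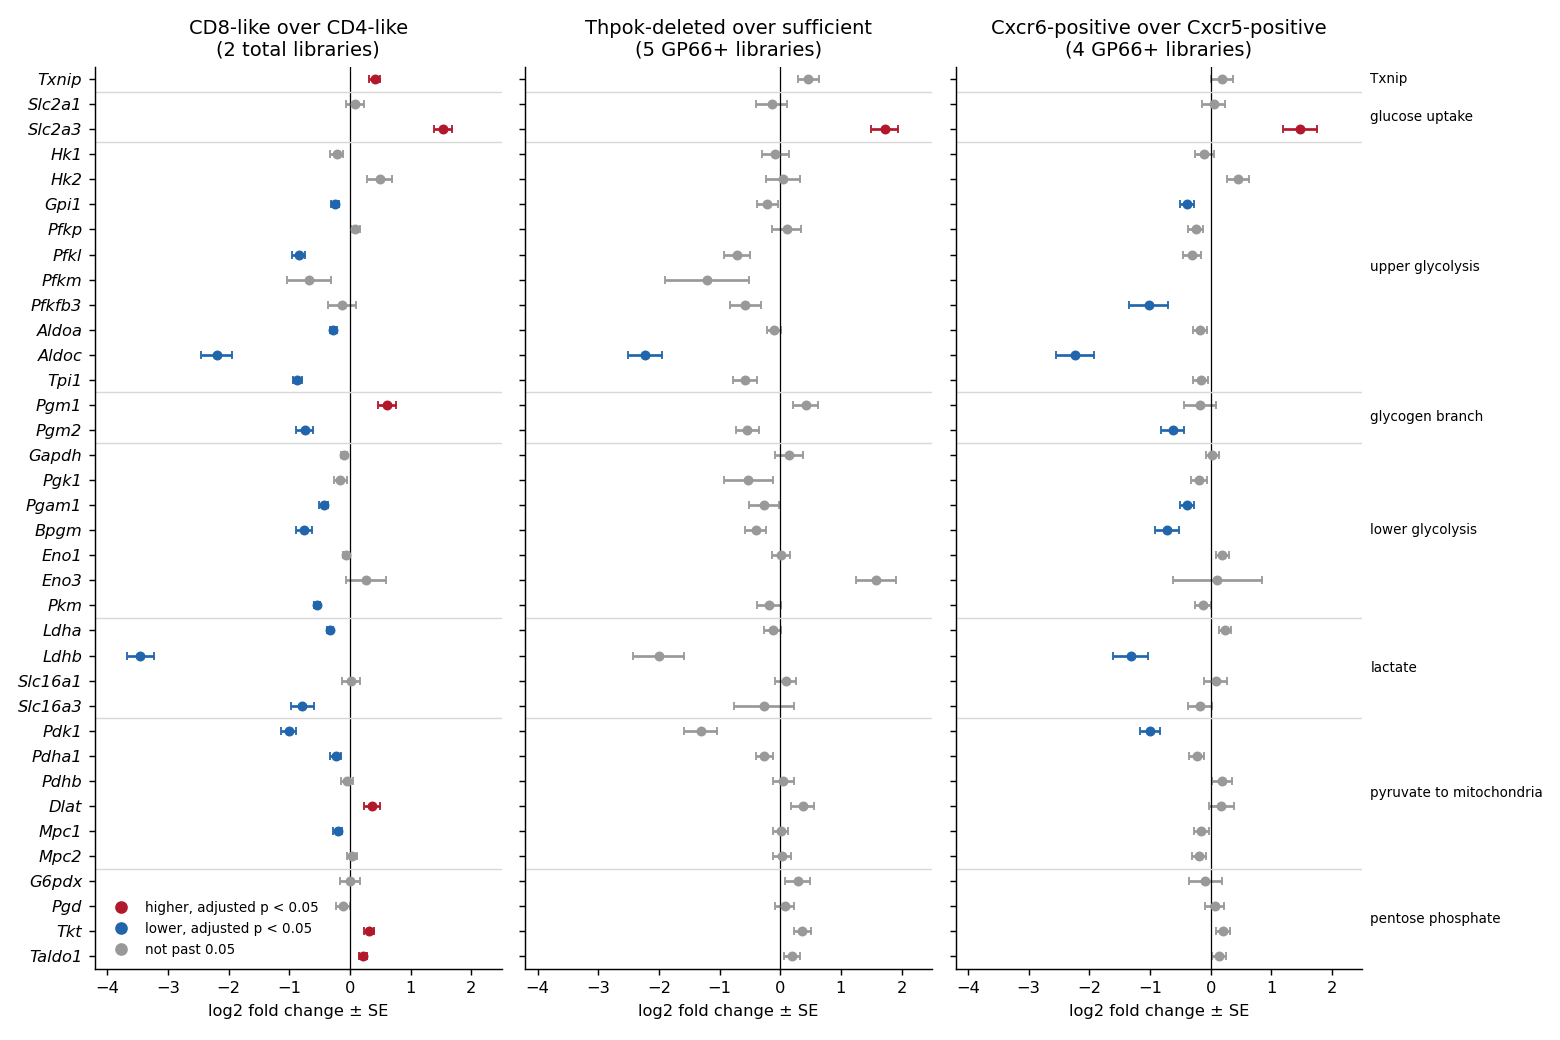
Log2 fold changes (points, ± SE) of the members by role in CD8-like over CD4-like cells of 2 total libraries, in Thpok-deleted over Thpok-sufficient cells of 5 GP66+ libraries and in Cxcr6-positive over Cxcr5-positive cells of 4 GP66+ libraries. Red and blue mark members past an adjusted p of 0.05. Slc2a3 is red and Aldoc blue in all 3 panels; Ldhb and Pdk1 are blue for lineage and subset and grey, left of zero, for deletion.

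**Figure D5:**
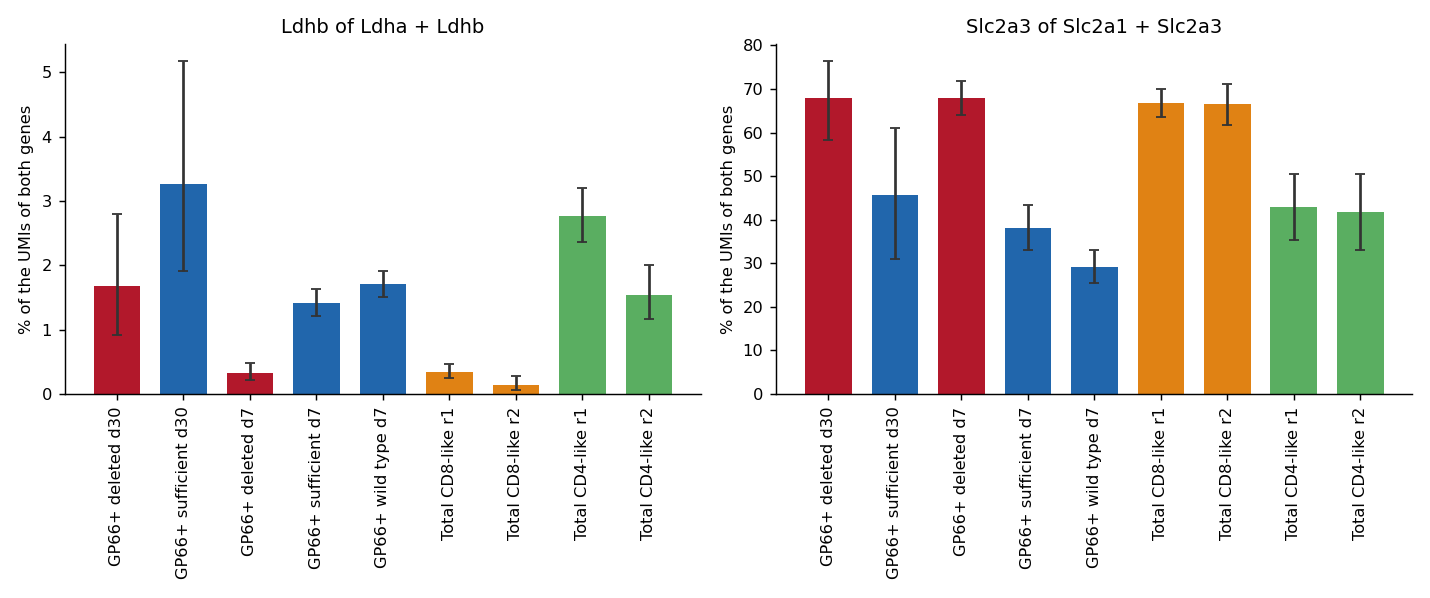
Share of Ldhb in the UMIs of Ldha and Ldhb (left) and of Slc2a3 in those of Slc2a1 and Slc2a3 (right) by library or class, with exact 95% binomial intervals for counting error. Thpok-deleted libraries are red, Thpok-sufficient and wild type ones blue, CD8-like classes orange and CD4-like classes green. The Slc2a3 bars stand near 67% in red and orange and between 29.1% and 45.7% in blue and green.

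GP66+ CD4-like cells were set against total CD4-like cells at day 7 in 4 libraries with intact Thpok. edgeR called 0 of 36 members, with 5 at an unadjusted p under 0.05, and 0.477% of 10264 genes, all higher. DESeq2 called 2 members, and 128 genes higher and 49 lower over all genes tested. The lowest p belonged to Txnip, at 28.3 and 27.9 CPM in the GP66+ CD4-like cells of the Thpok-sufficient and wild type libraries, against 102 and 76.3 CPM in total CD4-like cells, without overlap (-1.61 ± 0.21, adjusted p = 0.0524). Hk2 followed, at 34.4 and 28.1 CPM in GP66+ against 5.81 and 11.8 CPM in total CD4-like cells, again without overlap (1.98 ± 0.34, adjusted p = 0.114), and then Aldoc (0.72 ± 0.19, adjusted p = 0.253). Ldha (0.17 ± 0.16), Ldhb (-0.11 ± 0.24), Pkm (0.30 ± 0.17), Gapdh (0.08 ± 0.23), Slc2a1 (0.40 ± 0.32) and Slc2a3 (-0.28 ± 0.26) did not pass, and the median was 0.16 over the members and 0.00 over all genes. Stress genes rose with the GP66+ sort, 2 of 10 past the threshold, and their part was not tested. DESeq2 gave an adjusted p of 9.47e-07 for Txnip and of 0.000316 for Hk2. Without the Thpok-sufficient or the wild type library edgeR called both, with adjusted p of 0.00065 and 0.00209 for Txnip and 0.00518 and 0.000585 for Hk2, and without either total library it called neither.

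Reads of some members can fall on near copies. The last 400 bases of the transcripts of Gapdh matched those of 110 other annotated genes, 103 of them pseudogenes, at 95% identity or more over at least 90 bases; Ldha matched 6 pseudogenes, Eno1 matched 4 genes including Eno1b, and Gpi1, Aldoa, Mpc1, Tpi1, Pkm and Ldhb matched 1 to 3 each. Values of Gapdh and Eno1 in particular are uncertain to the extent that such reads were set aside or split in counting.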

How the data were processed

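Per the labels' protocols, single T cells sorted from spleen were captured with the 10x 3′ chemistry, version 2; per the submitters' processing notes, reads were demultiplexed with bcl2fastq 2.17 and processed with Cell Ranger on mm10. The labels give differing read layouts without saying which library had which, so read length could differ between the groups compared. The authors deposited raw UMI counts for 27998 genes and all barcodes of each well. Cells were called per well as barcodes with at least 10% of the 99th percentile of the 3000 largest barcodes, 500 genes and at most 10% mitochondrial UMIs. B-like and myeloid-like Leiden clusters of the total libraries were left out. No doublet caller was run; leaving out the 2% of cells with most UMIs is among the alternatives. Counts were summed per library and cell class and tested over all genes with edgeR 4.0.16 (quasi-likelihood, TMM factors, low-count filter), Benjamini-Hochberg adjusted at 0.05; DESeq2 1.42.0 was an alternative. An SE is the absolute log2 fold change over the square root of F. Class contrasts within libraries carried the library as a block, since both classes come from 1 capture.

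The members and gene lists were chosen with earlier results of these data known. Members past the threshold were named, up to 12 per direction by size with at least 20 CPM in the higher arm, with Txnip, Slc2a1, Slc2a3, Hk2, Ldha, Ldhb, Pkm and Gapdh given throughout and, where fewer than 3 passed, the 3 of lowest p; other named members, Aldoc and Eno3 among them, were named after their values were seen. The fitting code was run on simulated counts with known changes. Their spread was the same in every comparison and they held no library effect, unlike these data, so no conclusion on the fits here is drawn from them. Depth was 1551772 to 32985497 UMIs per library, and Poisson and binomial intervals cover counting error only.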

Additional observations from a re-analysis of the deposited data

How the results depend on the processing

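Counts of members called moved as follows. In CD8-like against CD4-like cells (21 called), DESeq2 called 12 and the fit with no replicate block 6. In Cxcr6-positive against Cxcr5-positive cells (9 called), cells with no cell cycle UMI gave 3, DESeq2 1, cells thinned to 1500 UMIs 4, no replicate block 1, and leaving out a library 1 to 11. In cycling cells (22 called), thinning gave 13, no replicate block 4 and leaving out a library 17 to 24; Slc2a3 and Dlat reversed on thinning, to -0.11 and -0.0175. At day 30 (17 called), the stricter cell filter (1000 genes, 5% mitochondrial UMIs) gave 6 and leaving out a library 0 to 17. For Thpok deletion (2 called), the stricter cells, cells with no cell cycle UMI, library totals alone and leaving out the largest cells gave 1 each, CD4-like cells, cells with no Cd8 UMI and Cxcr6-positive cells 0 each, DESeq2 4, no low-count filter 5 and leaving out a library 0 to 4. For GP66+ against total cells (0 called), DESeq2 gave 2, library totals alone 1, no low-count filter 3 and leaving out a library 0 to 3. Counts over all genes moved too, given as higher and lower. For CD8-like cells 1899 and 1973 became 750 and 628 with DESeq2 and 521 and 617 with no block. For Cxcr6-positive cells 843 and 799 became 326 and 274 with DESeq2, 176 and 169 on thinning and 23 and 9 with no block. For cycling cells 2504 and 2680 became 1476 and 1316 on thinning and 1287 and 917 with no block. For Thpok deletion 79 and 41 became 255 and 218 with DESeq2 and 419 and 372 with no low-count filter. The cause of these moves was not tested, beyond the smaller numbers of samples or cells. No other single-gene value changed sign against a call in the alternatives run: 2 reversed among all. For the comparisons between libraries, no paired analysis was possible because the GP66+ groups hold 1 library each, so that no replicate number is shared across days or genotypes. Depth limits Aldoc, Eno2, Pfkfb4 and Pfkm at day 30.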

Other observations

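Pgk1, phosphoglycerate kinase, split the libraries in a way that matched neither genotype nor day. It had 82.5 CPM in the wild type GP66+ library and 54.5 CPM in the first total library, and 27.8 to 38.7 CPM in the second total library and the 4 Cre libraries. Barcodes with 1 to 50 UMIs held it at 56.8 and 36.9 CPM in the first pair and at 19.7, 31.3 and 13.2 CPM in the Thpok-deleted, Thpok-sufficient and second total library of day 7. In cycling cells it was higher than in cells out of cycle in all 6 libraries of that comparison. The split was noticed after the values were seen and was not tested.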
